A study of Mus musculus with 4 samples.

Results

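Transcripts of 10 genes of cytokine signalling were followed in adipose group 2 innate lymphoid cells (ILC2), lymphocytes of tissues that carry no rearranged antigen receptor and secrete type 2 cytokines. The genes are Jak1, Jak3, Stat3, Stat5a, Stat5b, Stat6, Socs1, Socs2, Socs3 and Cish. They were taken by symbol from the 10941 genes of the deposited table, and all 10 were present. RNA of sorted cells was sequenced in 4 libraries, with 2 KO-named and 2 WT-named. The study set mice with an Il5RFP-cre allele (R5/+) and floxed Rptor, the gene of the mTORC1 subunit Raptor, against mice with the Cre allele alone, and asked what mTORC1 does in these cells.

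The groups are called by their library names because the labels go against each other. The KO-named libraries have titles with Rptor+/+ and the WT-named libraries titles with Rptorf/f, which holds for all 4 samples, so each direction below is between library names and not between genotypes. Both groups carry Il5RFP-cre (R5/+), and Cre from the Il5 locus acts in cells that have turned Il5 on. The labels used here give no age, sex or number of animals. Nor do they tell if replicate libraries stem from different mice, and p-values therefore cover sample-to-sample spread alone, some of which may be technical. Replicates carry the numbers 1 and 3 in the count columns and 1 and 2 in the labels, and the column's number is used here. Totals were 15258780 and 18856218 counts in KO-named replicates 1 and 3, and 18151479 and 17868376 in WT-named replicates 1 and 3. Rptor itself had 13 and 578 reads in KO-named replicates 1 and 3, against 316 and 1432 in WT-named replicates 1 and 3, and did not settle the labels (log2 fold change −1.39, SE 1.80, adjusted p = 0.906 by edgeR).

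Cytokine receptors without a kinase of their own carry Janus kinases (JAKs), which phosphorylate the receptor tail and then STAT proteins, and paired STATs enter the nucleus and switch genes on. Among the genes they induce are CIS, encoded by Cish, and the SOCS proteins, which bind the receptor or the kinase and damp the signal. In ILC2 the survival and activation signals of interleukin-2, interleukin-7 and TSLP run through this pathway, chiefly to STAT5, and those of interleukin-4 and interleukin-13 to STAT6.

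The promoters of the feedback inhibitors are shown because STAT binding there is the textbook route by which the pathway limits itself. RefSeq windows of 250 bases before to 50 after an annotated start were found for 9 of the 10 genes (11 windows on GRCm38.p6, or mm10), and Socs2 was the gene with no entry. The sequences below run 5′ to 3′ along the gene, and capitals mark TTCNNNGAA, the core that STAT dimers bind. The motif reads alike on both strands.
Cish, chr9:107296409-107296708, plus strand: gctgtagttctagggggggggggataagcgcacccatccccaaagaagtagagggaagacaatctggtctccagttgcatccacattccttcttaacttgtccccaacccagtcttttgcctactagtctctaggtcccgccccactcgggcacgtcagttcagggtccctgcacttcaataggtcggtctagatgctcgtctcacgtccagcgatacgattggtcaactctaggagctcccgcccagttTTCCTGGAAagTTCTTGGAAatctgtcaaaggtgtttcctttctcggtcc
Socs3, chr11:117969317-117969616, minus strand: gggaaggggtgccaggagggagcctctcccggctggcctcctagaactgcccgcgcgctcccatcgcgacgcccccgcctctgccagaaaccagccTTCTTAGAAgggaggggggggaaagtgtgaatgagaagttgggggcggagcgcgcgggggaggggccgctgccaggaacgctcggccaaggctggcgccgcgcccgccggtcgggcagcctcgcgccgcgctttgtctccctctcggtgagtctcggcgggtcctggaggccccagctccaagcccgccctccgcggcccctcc
Socs1, chr16:10785487-10785786, minus strand: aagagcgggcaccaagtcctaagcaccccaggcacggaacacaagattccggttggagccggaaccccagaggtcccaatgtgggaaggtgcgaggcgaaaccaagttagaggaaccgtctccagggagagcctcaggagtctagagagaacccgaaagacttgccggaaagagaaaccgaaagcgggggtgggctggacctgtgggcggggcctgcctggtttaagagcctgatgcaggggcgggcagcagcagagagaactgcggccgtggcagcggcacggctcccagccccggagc
The Cish window held 2 matches, TTCCTGGAA from the start base itself and TTCTTGGAA from 11 bases further on. The Socs3 window held TTCTTAGAA, from 154 bases before the start. No other window of the 10 genes had a match. The windows of Socs3, Stat5a and Stat5b lie wholly inside the gene spans given below. They therefore do not reach the 5′ ends of those spans, which were not searched. Of all 32851 windows of this length, 8.30% held at least 1 match and 0.457% at least 2. The wider spacing TTCNNNNGAA, which STAT6 prefers, was in none of the members' windows and in 6.95% of all. A match is a description of the letters and not a bound site.

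Socs2 was by far the most abundant of the 10 genes. Levels are compared between genes as CPM per kilobase of the longest annotated transcript, where CPM are read counts put on a common library size with TMM factors. Over the 4 libraries Socs2 averaged 252 CPM per kilobase, above 97.2% of the genes with a known length. Jak1 followed with 93.6 CPM per kilobase, then Cish with 35.1 and Stat6 with 28.4 CPM per kilobase, and these 4 genes kept that order among themselves in each of the 4 libraries. Stat5b, at 35.5 CPM per kilobase, came between Jak1 and Cish in KO-named replicate 1. Over all libraries Stat5b averaged 16.2 and Stat3 13.5 CPM per kilobase. Socs3 at 4.99, Jak3 at 3.12, Socs1 at 2.33 and Stat5a at 2.2 CPM per kilobase came last, and Stat5a was above 36.1% of genes. The lowest library of Socs2, at 176.5 CPM per kilobase, was above the highest of Jak1, at 127.3, and the lowest of Jak1, at 64.3, above the highest of Cish, at 47.7. From Cish downward each gene's range over libraries overlapped that of the next.

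None of the 10 genes passed the test between the groups. The test was edgeR's quasi-likelihood test with Benjamini-Hochberg adjustment over the 8753 genes that passed a filter on low counts, and all 10 were among them. Of those 8753 genes 0 (0%) passed an adjusted p of 0.05, and 859 (9.81%) had an unadjusted p under 0.05, with higher values in the KO-named libraries for 304 and lower ones for 555. With library size alone as the scaling that split was 160 to 685, and with no filter on low counts it was 859 to 540. DESeq2 called 952 genes (9.85% of those it gave an adjusted p) and limma-voom 201, with no member among either. A single member, Socs2, was under the unadjusted 0.05, and with library size alone it was Jak1 (unadjusted p = 0.0333 by edgeR) and not Socs2 (0.118). In 4 of the 10 genes the KO-named and WT-named libraries did not overlap, Socs2 and Stat5b with higher values in the KO-named libraries and Jak1 and Stat6 with lower ones. Over all tested genes 39.8% did not overlap, 17.8% with higher and 22.1% with lower values in the KO-named libraries, so the members' share was near the background. With library size alone 5 members did not overlap, 1 with higher and 4 with lower values in the KO-named libraries, against 40.8% of all tested genes, 12.2% higher and 28.6% lower. Stat5b then overlapped, and Stat3 and Cish joined Jak1 and Stat6 with lower values. With TMM scaling the median log2 fold change of the 10 genes was −0.36, with 4 above 0 and 6 below. Over all tested genes that median was 0.05, with 48.6% below 0.

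**Figure D1:**
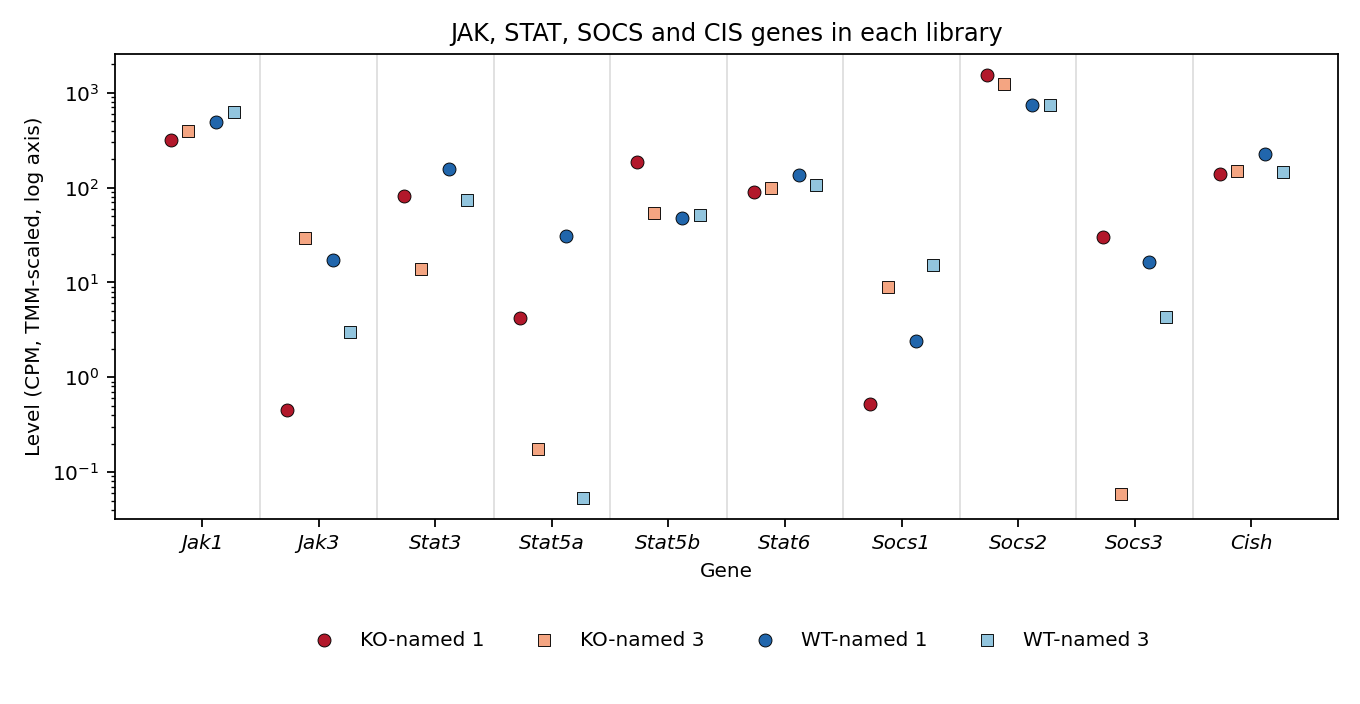
Levels of the 10 genes in CPM scaled by TMM factors (logarithmic axis), 1 point per library, with KO-named libraries left of WT-named ones and the replicate number by shape. Jak1, Stat6, Socs2 and Cish sat close together in all 4 libraries, whereas Stat5a ran from 0.0535 to 31.1 CPM.

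Jak1, the kinase that nearly all of these receptors share (Entrez 16451, chromosome 4, 101151974 to 101265282, mm10), was at 316 and 399.9 CPM in KO-named replicates 1 and 3, against 496 and 625 CPM in WT-named replicates 1 and 3. The groups did not overlap, and the means were 358 CPM ± 59.7 in the KO-named and 561 CPM ± 90.6 in the WT-named group (SD, n = 2 each). The log2 fold change, KO-named minus WT-named, was −0.65 (SE 0.42, adjusted p = 0.712 by edgeR). It lay between −0.84 and −0.39 with any library left out, and at −0.97 with library size alone, a scaling that moved the median of all tested genes to −0.28. Jak3 (Entrez 16453, chromosome 8, 71676383 to 71690577), the kinase bound to the common gamma chain, behaved otherwise. It had 6 and 508 reads in KO-named replicates 1 and 3 and 379 and 56 reads in WT-named replicates 1 and 3, or 0.447 and 29.7 CPM against 17.4 and 3.0 CPM. Each group held a high and a low library, so the log2 fold change of 0.57 (SE 2.21, adjusted p = 0.974 by edgeR) had no stable sign and ran from −4.48 without KO-named replicate 3 to 2.33 without WT-named replicate 1.

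Stat6 and Stat3 were the main STAT transcripts of the 4 members in WT-named libraries, and Stat6 the steadiest. Stat6 (Entrez 20852, chromosome 10, 127642955 to 127660987), the factor of interleukin-4 and interleukin-13 signals, was at 90.6 and 97.9 CPM in KO-named replicates 1 and 3, against 134.6 and 105.6 CPM in WT-named replicates 1 and 3. Both KO-named values were below both WT-named ones by a small margin, with a log2 fold change of −0.35 (SE 0.72, adjusted p = 0.951 by edgeR). Stat3 (Entrez 20848, chromosome 11, 100886806 to 100939594), which serves gp130 receptors and interleukin-10 and interleukin-21, was at 80.6 and 13.9 CPM in KO-named replicates 1 and 3, against 157.5 and 73.4 CPM in WT-named replicates 1 and 3. KO-named replicate 3 was the low library and KO-named replicate 1 lay between the WT-named ones. The log2 fold change of −1.29 (SE 1.03, adjusted p = 0.811 by edgeR) was −3.04 without KO-named replicate 1 and −0.52 without KO-named replicate 3.

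Stat5a and Stat5b encode close copies of STAT5, and Stat5b was the form found at substantial levels in every library. Stat5b (Entrez 20851, chromosome 11, 100780731 to 100859004) was at 185.0 and 53.5 CPM in KO-named replicates 1 and 3, against 47.8 and 51.8 CPM in WT-named replicates 1 and 3. A single library, KO-named replicate 1, stood above 3 that were nearly level. Its log2 fold change was 1.26 (SE 0.91, adjusted p = 0.761 by edgeR) and 0.11 without KO-named replicate 1. That library was also the one with stromal transcripts, since Gsn, an actin-severing protein abundant in fibroblasts, was at 598 CPM there and at most 1.93 CPM elsewhere, and their part in the result was not tested.

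Stat5a (Entrez 20850, chromosome 11, 100859351 to 100885169) had 56 and 3 reads in KO-named replicates 1 and 3 and 679 reads and 1 read in WT-named replicates 1 and 3. It reached a sizeable level in WT-named replicate 1, at 31.1 CPM, and WT-named replicate 3 of the same group was the lowest of all, at 0.0535 CPM. The log2 fold change was −2.84 (SE 2.67, adjusted p = 0.861 by edgeR) and changed sign to 5.12 without WT-named replicate 1. Per length, Stat5b made up 97.1% and 99.6% of the STAT5 transcripts in KO-named replicates 1 and 3, against 53.8% and 99.9% in WT-named replicates 1 and 3. Stat5b, Stat5a and Stat3 lie side by side on chromosome 11, with 346 bases between the first pair and 1636 between Stat5a and Stat3. The paralogs are alike enough for reads to be split between them, as 6.99% of the 100-base windows of the longest Stat5a transcript occur unchanged in Stat5b, so their separate counts carry that uncertainty.

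**Figure D2:**
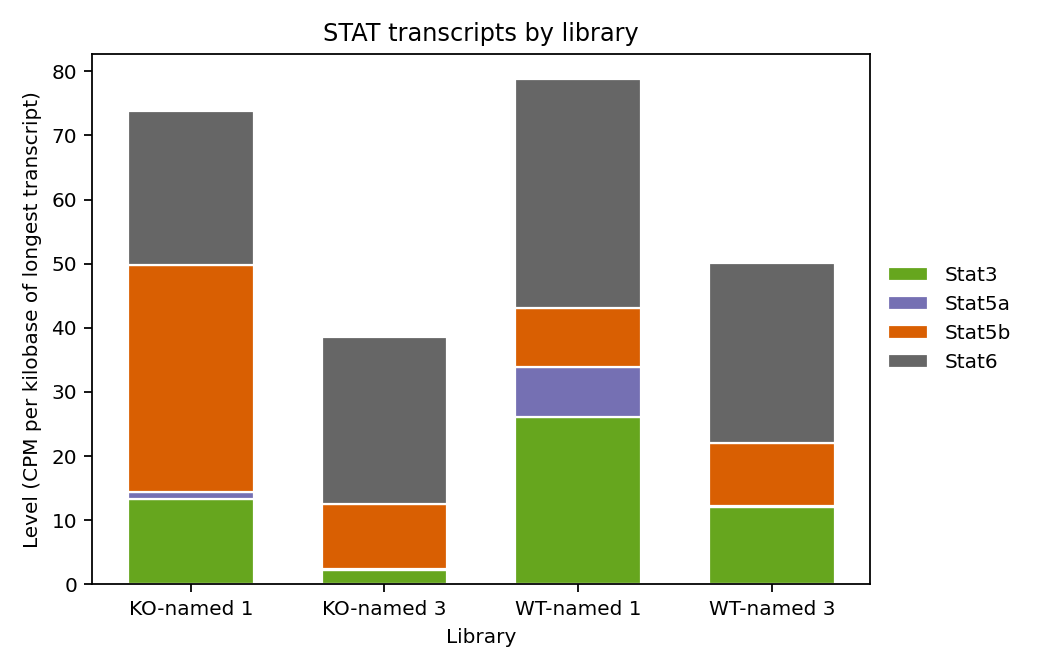
Stacked levels of Stat3, Stat5a, Stat5b and Stat6 in each library (vertical axis in CPM per kilobase of the longest transcript, from 0). Stat5b took 48.0% and 26.6% of the sum in KO-named replicates 1 and 3, against 11.6% and 19.8% in WT-named replicates 1 and 3, and Stat5a is visible as a block in WT-named replicate 1.

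The sum of the 4 STAT genes also differed within each group, at 73.9 and 38.6 CPM per kilobase in KO-named replicates 1 and 3 and 78.8 and 50.1 CPM per kilobase in WT-named replicates 1 and 3. Stat6 made up 32.5% and 67.3% of it in KO-named replicates 1 and 3, against 45.3% and 55.9% in WT-named replicates 1 and 3. These shares were compared after the values were seen, and they rest on 1 transcript length per gene.

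Socs2 (Entrez 216233, chromosome 10, 95383903 to 95417321), a STAT5-induced inhibitor best known for limiting growth hormone signals, had 20527 and 21302 reads in KO-named replicates 1 and 3 and 16326 and 14043 reads in WT-named replicates 1 and 3. Its level was 1530.0 and 1247 CPM in KO-named replicates 1 and 3, against 749 and 752 CPM in WT-named replicates 1 and 3. The WT-named libraries were nearly equal and both KO-named libraries were well above them. The means were 1389 CPM ± 200.01 in the KO-named and 750.3 CPM ± 2.25 in the WT-named group (SD, n = 2 each). On the log2 scale the fold change was 0.89 (SE 0.35), at an unadjusted p of 0.0284 and an adjusted p of 0.443 by edgeR's quasi-likelihood test. By edgeR the unadjusted p was 0.0264 with RLE scaling and 0.0224 with the replicate number as a block. It was 0.0505 with no filter and 0.118 with library size alone. With limma-voom it was 0.0175 and with DESeq2 0.478. The log2 fold change of Socs2 stayed between 0.74 and 1.02 with any library left out and was 0.55 with library size alone. Over the alternatives with all 4 libraries its adjusted p lay between 0.244 with limma-voom and 0.929 with DESeq2. Markers of 2 other cell types were set beside it. The 9 of 10 mast cell markers in the table, none of them at 0 in any library, summed to 10554 and 7977 CPM in KO-named replicates 1 and 3, against 7804 and 6421 CPM in WT-named replicates 1 and 3, and 6 of the 9 were above 0 in log2 fold change. In CPM neither these sums nor the values of Socs2 overlapped between the groups. As RPM, reads scaled by library size alone, the mast cell sums overlapped. They were 9279 and 7226 in the KO-named and 9375 and 6712 in the WT-named libraries. Socs2 was at 1345 and 1130 RPM in the KO-named and 899 and 786 RPM in the WT-named libraries. Of the 9 markers 3 were higher in both KO-named libraries (Kit, Gata2 and Cma1) and 2 lower (Ms4a2 and Fcer1a). Of the 11 ILC2 markers 4 were higher in CPM in both KO-named libraries (Areg, Icos, Il17rb and Thy1) and 0 lower. In log2 fold change 7 of the 11 ILC2 markers were above 0. Over all tested genes 17.8% were higher and 22.1% lower without overlap. Kit was at 1484 and 1557 CPM in KO-named replicates 1 and 3, against 711 and 1095 CPM in WT-named replicates 1 and 3. Ms4a2, a chain of the IgE receptor, was at 25.3 and 7.96 CPM in the KO-named libraries, against 68.1 and 54.5 CPM in the WT-named ones. Of 10 macrophage and dendritic cell markers 2 were listed, Adgre1 and Cd68, and their sum did not overlap, at 29.2 and 32.7 CPM in KO-named replicates 1 and 3, against 2.02 and 13.0 CPM in WT-named replicates 1 and 3, with Adgre1 at 0 in WT-named replicate 1. The part of either cell type in the result was not tested. In sorted bulk RNA, more cells of a type and more RNA per cell cannot be told apart.

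Cish (Entrez 12700, chromosome 9, 107296659 to 107302784), whose product CIS blocks STAT5 docking sites and restrains interleukin-2 family signals, did not follow Socs2. It was at 137.9 and 150.0 CPM in KO-named replicates 1 and 3, against 224 and 146.6 CPM in WT-named replicates 1 and 3. WT-named replicate 1 was high and the other 3 libraries lay between 137.9 and 150.0 CPM. The log2 fold change was −0.37 (SE 0.59, adjusted p = 0.933 by edgeR) and −0.047 without WT-named replicate 1. Both genes are STAT5 targets, and the ratio of Socs2 to Cish in CPM, which no library scaling changes, was 11.1 and 8.31 in KO-named replicates 1 and 3, against 3.34 and 5.13 in WT-named replicates 1 and 3. Set against Jak1, Socs2 was at ratios of 4.85 and 3.12 in the KO-named and 1.51 and 1.20 in the WT-named libraries, while Cish was at 0.437 and 0.375 in the KO-named and 0.452 and 0.235 in the WT-named libraries. The ratios with Socs2 did not overlap between the groups and that of Cish to Jak1 did. For Socs2 to Jak1 this was fixed in advance, since both KO-named libraries were higher in Socs2 and lower in Jak1. The same held for Socs2 to Cish, since as RPM both KO-named libraries were higher in Socs2 and lower in Cish. Cish was at 121 and 136 RPM in the KO-named and 269 and 153 RPM in the WT-named libraries. The ratios were chosen after the values were seen. They are given with no test, as 2 libraries against 2 cannot give an exact permutation p below 0.333.

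Socs1 and Socs3, the inhibitors that act on the kinases directly, were scarce and uneven. Socs1 (Entrez 12703, chromosome 16, 10783808 to 10785536), a main brake on interferon signals, had 7 and 152 reads in KO-named replicates 1 and 3, against 53 and 285 reads in WT-named replicates 1 and 3. It was low in replicate 1 and higher in replicate 3 of each group, and the log2 fold change of −0.91 (SE 2.12, adjusted p = 0.954 by edgeR) was −4.10 without KO-named replicate 3 and 1.08 without WT-named replicate 3. Socs3 (Entrez 12702, chromosome 11, 117966079 to 117970336), which limits gp130 and STAT3 signals, had 407 reads and 1 read in KO-named replicates 1 and 3, against 355 and 80 reads in WT-named replicates 1 and 3. Here replicate 1 was the high library of each group, and the log2 fold change of 0.56 (SE 2.35, adjusted p = 0.974 by edgeR) became −7.29 without KO-named replicate 1, a size that depends on the single read of the other KO-named library. KO-named replicate 1, the highest for Socs3, is again the library with the stromal transcripts named above, and their part was not tested for this gene either.

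**Figure D3:**
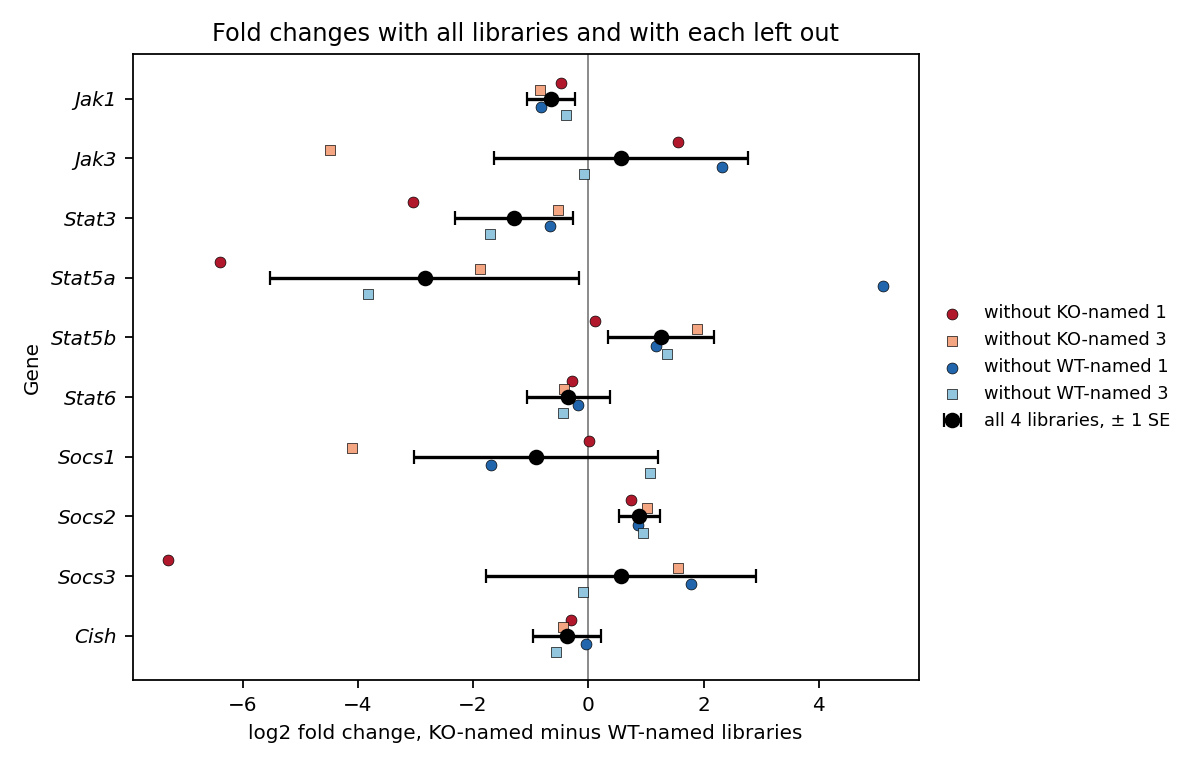
Log2 fold change of each gene, KO-named minus WT-named, with all 4 libraries (black, bars ± 1 SE from edgeR) and with each library left out (coloured points). Socs2 kept values between 0.74 and 1.02 and Jak1 between −0.84 and −0.39, whereas Jak3, Stat5a, Socs1 and Socs3 crossed 0.

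In the median the 10 genes differed more within the KO-named pair than between the groups. The gap between libraries of a pair, as the size of the log2 ratio of CPM + 0.5, had a median of 2.14 for the KO-named pair and 0.85 for the WT-named pair, against 1.29 and 0.90 over all tested genes. The gap between group means had a median of 0.94 for the members and 0.99 for all tested genes. It was larger than both within-pair gaps for 2 of the 10 members, Jak1 and Socs2, and for 27.5% of all tested genes. Socs3 in the KO-named and Stat5a in the WT-named pair had at least 100 reads in one library and at most 3 in the other, which held for 633 of 7055 genes (8.97%) in the KO-named pair and for 373 of 7943 (4.70%) in the WT-named pair among genes with 100 reads in at least 1 library.

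The genes nearest in profile to Stat5a and Socs3, the members with the widest range over libraries, were sought among 5120 others with a mean of at least 20 CPM. The measure was the Euclidean distance over the 4 libraries between log2(CPM + 1) values centred on each gene's mean. Socs3 had close neighbours in Arid5a, an RNA-binding protein, at 0.27, in Lbh at 0.38 and in Ugdh, which makes UDP-glucuronate, at 0.52. Arid5a was at 61.9 and 0.878 CPM in KO-named replicates 1 and 3, against 25.7 and 8.09 CPM in WT-named replicates 1 and 3. Stat5a had none as close, with Fhl2 at 1.41, Uggt1 at 1.52 and Ocrl at 1.60.

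The rest of the pathway was described with lists of 90 further genes, of which 69 were in the table and 67 were tested. None passed an adjusted p of 0.05, 2 higher and 4 lower values were under an unadjusted p of 0.05 by edgeR, against 3.47% and 6.34% of all tested genes, and the median log2 fold change was 0.03. All 5 remaining JAK and STAT genes were present. Jak2, the kinase of the GM-CSF and interleukin-5 receptors, was more abundant per length than Jak1, at 422 and 193 CPM per kilobase in KO-named replicates 1 and 3 against 338 and 380.3 CPM per kilobase in WT-named replicates 1 and 3. Its log2 fold change was −0.22 (SE 0.40, adjusted p by edgeR 0.942). Stat4, the interleukin-12 factor, averaged 107 CPM per kilobase over the 4 libraries, above every STAT among the 10 members. Of the other SOCS genes, Socs5 had 1.25 (SE 0.79), Socs6 −2.22 (SE 1.90) and Socs4 −0.79 (SE 2.07).

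Receptors of the common gamma family and type 2 cytokines had 6 of 7 tested members below 0, with a median log2 fold change of −0.61, which was −0.32 without WT-named replicate 3 and −0.94 with library size alone. Il9r, the interleukin-9 receptor, averaged 28.0 CPM ± 6.98 in the KO-named and 150.4 CPM ± 31.9 in the WT-named group (SD, n = 2 each). The log2 fold change of −2.43 (SE 0.85, adjusted p = 0.433 by edgeR) kept between −2.70 and −2.13 with any library left out. Il7r had −0.35 (SE 0.34), Il2ra −0.19 (SE 0.35) and Il2rg, the common gamma chain that Jak3 binds, −1.07 (SE 0.57). All 4 interferon receptors were below 0 (median −0.45, −0.28 without WT-named replicate 1, −0.70 without WT-named replicate 3 and −0.81 with library size alone), with Ifngr1 at −0.05 (SE 0.46), Ifnar1 at −0.14 (SE 0.62) and Ifnar2 at −0.75 (SE 1.03). Of the gp130, beta-common and interleukin-10 family receptors 5 of 8 were above 0 (median 0.47, −1.20 without KO-named replicate 1, 0.77 without WT-named replicate 1, 0.23 without WT-named replicate 3 and 0.11 with library size alone), with Il10ra at 0.22 (SE 0.91), Csf2rb2 at 1.83 (SE 1.10) and Csf2rb at −0.97 (SE 0.92).

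Among phosphatases, PIAS proteins and other regulators 8 of 13 were above 0, with a median log2 fold change of 0.25, the same with Ptpn6 at its bound. That median turned to −0.40 without KO-named replicate 3 and to −0.10 with library size alone, and was 0.42 without WT-named replicate 1. Ptpn6, which encodes the phosphatase SHP-1, was without a read in both KO-named libraries and at 28.5 and 12.2 CPM in WT-named replicates 1 and 3. In KO-named libraries it was at least 213-fold lower, with the floor set at 3 counts over the group (adjusted p = 0.433 by edgeR). That bound covers counting error only and not the spread between libraries, and was 93.7 to 290-fold with a library left out. Pias3, an inhibitor of STAT3, had 6 reads over the KO-named libraries and 595 over the WT-named ones, a level 74.7-fold lower in the KO-named libraries (95% exact binomial interval 34.1 to 204, counting error only, adjusted p = 0.439 by edgeR). Ptprc, the CD45 phosphatase, had −0.25 (SE 0.33), Ptpn2 0.55 (SE 0.62) and Cblb −1.01 (SE 0.86).

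STAT5 target genes had 8 of 11 tested members above 0 and a median log2 fold change of 0.19. The median had no stable sign or size, at −0.019 without KO-named replicate 1, 0.44 without KO-named replicate 3 and 0.95 without WT-named replicate 1. Myc, the growth regulator, averaged 313 CPM ± 169.2 in the KO-named and 102 CPM ± 23.6 in the WT-named group (SD, n = 2 each), with a log2 fold change of 1.61 (SE 0.60, adjusted p = 0.433 by edgeR) that was 0.93 without KO-named replicate 1. Mcl1, a survival protein, had 0.71 (SE 0.48), Pim1, a kinase, 0.26 (SE 0.46) and Ccnd2, cyclin D2, 0.51 (SE 0.47). Of STAT3 targets 3 of 5 were above 0 (median 0.11, from −0.28 without KO-named replicate 3 to 0.38 without KO-named replicate 1), with Fos at 0.79 (SE 0.40), Hif1a at 0.11 (SE 0.44) and Junb at 0.24 (SE 0.41). Of STAT6 targets 2 of 3 were above 0 (median 0.16, from −0.21 without KO-named replicate 1 to 0.46 without KO-named replicate 3), with Gata3 at 0.16 (SE 0.40), Arg1 at −0.55 (SE 0.39) and Cebpb at 0.60 (SE 1.39). With library size alone the medians of the STAT5, STAT3 and STAT6 target lists were all at −0.19, against −0.28 for all tested genes.

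Ligands that signal through these kinases had 6 of 7 tested members below 0, with a median log2 fold change of −0.98, and −0.36 without WT-named replicate 3. Csf2, which encodes GM-CSF, had −0.76 (SE 0.35) and Il6 −0.22 (SE 0.75). Il5, the gene that carries the Cre allele, had −1.71 (SE 0.56, adjusted p = 0.433 by edgeR), and Il4, the member above 0, had 2.50 (SE 0.86, adjusted p = 0.433 by edgeR).

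**Figure D4:**
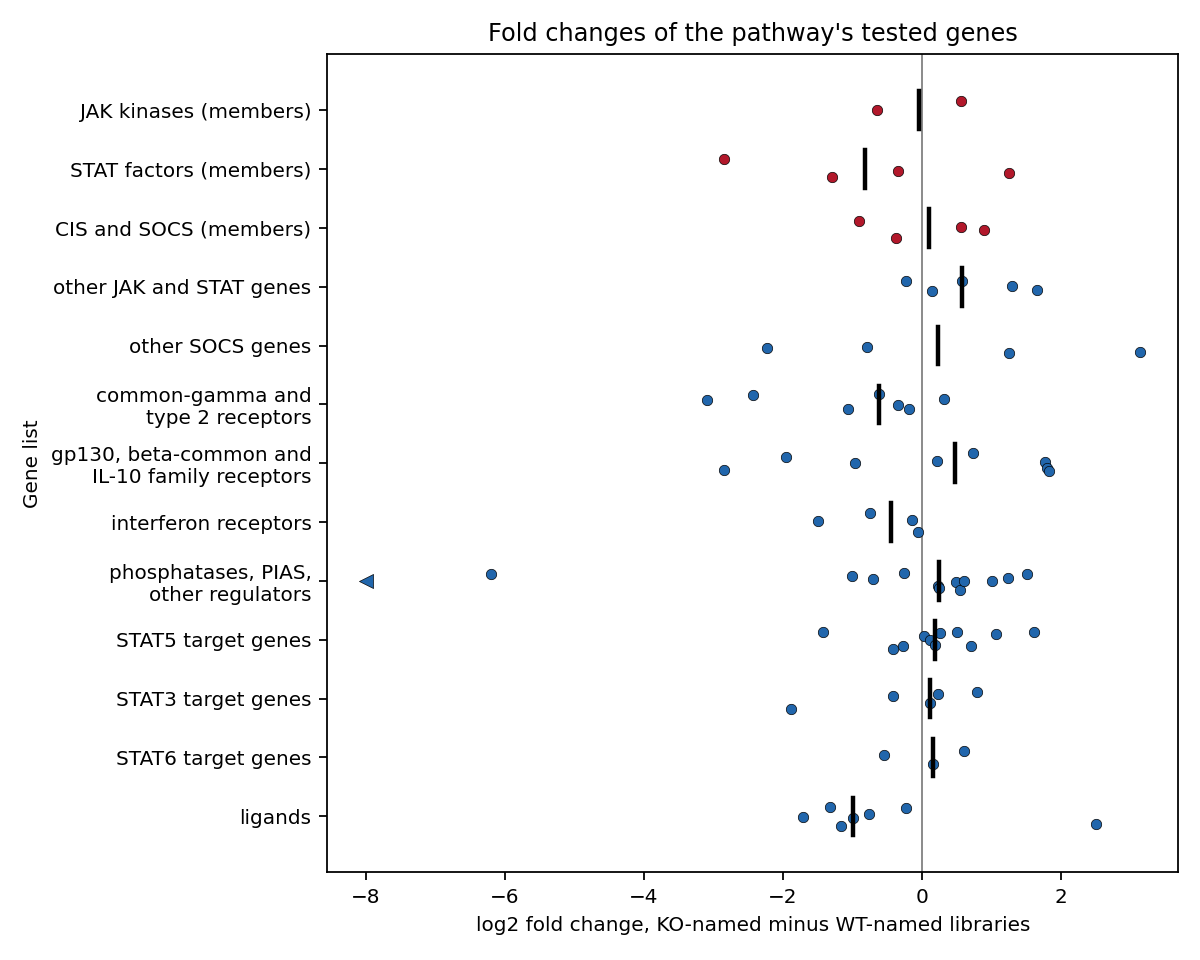
Log2 fold change, KO-named minus WT-named, of each tested gene in the member groups (red) and the further pathway lists (blue), 1 point per gene with the list median as a black bar. The triangle at −8 is Ptpn6, whose fitted value lies beyond the axis because no KO-named library held a read of it; common gamma receptors (median −0.61) and ligands (median −0.98) had 6 of 7 genes below 0.

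The cells were checked against markers of their type. All 11 listed ILC2 markers were present and their summed level overlapped between groups, at 17877 and 14638 CPM in KO-named replicates 1 and 3 and 14711 and 18128 CPM in WT-named replicates 1 and 3. As RPM it did not overlap, at 15719 and 13260 in the KO-named and 17672 and 18948 in the WT-named libraries. Mast cell markers, set beside Socs2 above, were also abundant and summed to between 6421 and 10554 CPM in the 4 libraries. Cpa3 among them was at 2975 to 4034 CPM, where Gata3 was at 716 to 1201 CPM. The part of mast cells in the levels given here was not tested. Of 9 T cell markers 5 were listed, and their sum was 307 and 225 CPM in KO-named replicates 1 and 3 against 428 and 219 CPM in WT-named replicates 1 and 3. Cd3e was at 0 in both KO-named libraries and at 6.01 and 11.9 CPM in WT-named replicates 1 and 3. Cd3g overlapped, at 158 and 101 CPM in the KO-named and 235 and 97.3 CPM in the WT-named libraries. Of 10 fibroblast and stromal markers 2 were listed, Gsn and Col1a2, and summed to 822 CPM in KO-named replicate 1 and to at most 7.57 CPM elsewhere.

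In the authors' deposited table the q-values of the 10 genes lay between 0.681 and 0.996. The authors' deposited table gives log2 fold changes headed WT-vs-KO that are positive where KO-named libraries are higher, with the sign of the edgeR value in 91.7% of 4311 genes beyond a log2 fold change of 1 and in 9 of the 10 members, Socs3 being the exception. The sizes differed, since the authors' deposited table gives 0.43 for Socs2, −0.25 for Jak1 and −0.060 for Stat6, where edgeR gave 0.89, −0.65 and −0.35. Which samples entered that comparison is not given in the sources used here, and it may have used others than these 4 libraries.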

How the data were processed

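ILC2 were sorted from mouse adipose tissue, and their Trizol-extracted RNA was made into libraries by a kit named Smart mRNA-seq, according to protocols in the labels. The submitters' processing notes name the build mm10. The sources used here do not name the sort gate, read length, strandedness, aligner, counter or annotation. The authors deposited estimated counts per gene, between 20.0% and 21.6% of them fractional in each library, and these were rounded. Per the file headers, the authors also deposited DESeq2 log2 fold changes, p-values and q-values. Another 12 per-sample columns went unused.

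edgeR 4.0.16 (R 4.3.3, quasi-likelihood test, TMM, filterByExpr, Benjamini-Hochberg at 0.05) compared KO-named with WT-named libraries over all genes. The code was tried on simulated counts with the same fixed spread for every gene. That trial does not show how the test does on libraries as uneven as these. SE is the size of the log2 fold change over the square root of F. Alternatives were RLE scaling, library size alone, no filter, DESeq2 1.42.0, limma-voom (limma 3.58.1), a replicate block and each library left out. A count of 0 allows up to 0.138 to 0.224 CPM (3 counts), for counting error only. Named were all 10 members, in each list the 3 most abundant genes and up to 3 under an unadjusted p of 0.05, and the 3 nearest in profile to 2 members, apart from a gene not reported here. Gene positions and promoters come from RefSeq (GRCm38.p6) and transcript lengths, for 97.1% of genes, from GENCODE M21. Members and lists were chosen with earlier results of these data known.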

Additional observations from a re-analysis of the deposited data

How the results depend on the processing

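Of 100 recomputed fold changes of the 10 members (10 alternatives each), 89 kept their direction, and no member passed an adjusted p of 0.05 under any alternative. Jak1, Stat3, Stat5b, Stat6, Socs2 and Cish kept it throughout. With limma-voom Jak3 was at −1.01 and Socs3 at −2.25. With one library left out Jak3 ran from −4.48 to 2.33, Stat5a from −6.40 to 5.12, Socs1 from −4.10 to 1.08 and Socs3 from −7.29 to 1.78. The number of genes past an adjusted p of 0.05, 0 with edgeR's quasi-likelihood test, where 859 had an unadjusted p under 0.05, was 952 with DESeq2, 201 with limma-voom and 0 to 7 with a library left out, and those under an unadjusted p of 0.05 numbered 1399 with no filter, 1684 with DESeq2 and 392 to 1489 with a library left out. For these the cause was not tested. Jak1, Stat6, Socs2 and Cish had at least 1215 reads in every library, whereas Stat5a and Socs3 each had a library with a single read.

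The labels do not tell if same-numbered libraries share more than a number. The correlation of their deviations from the group means was −0.0071 over genes, which cannot decide it with 2 libraries per group. With the replicate number as a block 25 genes passed, Jak3 was at −0.91 and Socs3 at −2.28, and no call on a member changed. Of 70 recomputed list medians 52 moved by less than the spread between libraries of a group and 18 by more.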
